A study of Sus scrofa with 20 samples.

Results

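The lectin pathway is the branch of complement that starts from sugars on microbial surfaces. Its recognition molecules are the ficolins and the mannose-binding lectins, which circulate bound to the serine proteases MASP1 and MASP2, and MASP2 cleaves C4 and C2 once the complex has bound a target. In humans FCN1 (M-ficolin) is made mainly by monocytes and neutrophils and FCN2 (L-ficolin) mainly by the liver, and the liver is also the main source of mannose-binding lectin and the MASPs in blood. FCN1, FCN2, MBL1, MBL2, MASP1 and MASP2 were examined in pig caecal mucosa, 6 genes out of 10567 named on the array. Members were taken by gene symbol of the platform, and the probeset that stands for a gene was chosen by its mean level, the highest over the 20 pigs, so levels are given as a description. Values were available for 5 members on 9 probesets, with 4 probesets for FCN2, 2 for MASP2 and 1 each for FCN1, MBL1 and MBL2. MASP1 was not analysed, because neither of its probesets had values. All 9 probesets passed the filters on level and SD.

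Mucosa was scraped from the tip of the caecum of 20 pigs of a Large White x Landrace cross, and RNA of each pig was hybridised to 1 porcine snowball array. The 10 pigs of high feed efficiency had a low residual feed intake (RFI), and the 10 pigs of low feed efficiency a high RFI, where RFI is the feed eaten beyond what was predicted from body weight, backfat and muscle depth. The pigs were fed ad libitum, of similar age at slaughter, and picked as extremes within litter and sex, so they do not represent the range of their litters. Each of 5 sows gave 1 male and 1 female to either efficiency group, which formed 10 pairs of 1 sow and sex. Litters were penned intact, so litter and pen cannot be told apart. Epithelial markers were bright in all pigs, with means over pigs between 9.30 and 12.33 for the 7 measured of 10. Of the liver plasma protein genes, 5 of 6 were measured, and APOA1 averaged 4.86, TTR 4.33, ALB 2.47, FGB 1.60 and APOH 1.52, of which FGB and APOH lay under the level filter at 1.62. All values are log2 expression after robust multichip averaging (RMA). The signal of a probeset also depends on its probes, so a rank of signal does not order genes by transcript amount.

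The chosen FCN2 probeset gave a strong signal in every pig. Its level ranged between 9.34 and 11.55 over the 20 pigs, with a mean of 10.95 ± 0.51 (SD, n = 20), above 99.4% of probeset means. The other FCN2 probesets averaged 9.60, 9.43 and 9.36, and the 4 probesets moved together between pigs, with a Pearson r of 0.89 to 0.98 across their pairs. FCN1 averaged 5.93 ± 0.87 (SD, n = 20), above 69.9% of probeset means, and its SD exceeded that of 96.2% of probesets. Signal was weak for MBL1 at 2.70, MBL2 at 2.39 and MASP2 at 2.69, each above 17.7% to 21.7% of probeset means. At this level a difference between pigs is compressed by RMA and rests on little signal. The 2 MASP2 probesets correlated with r = 0.30 only, unlike those of FCN2.

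**Figure D1:**
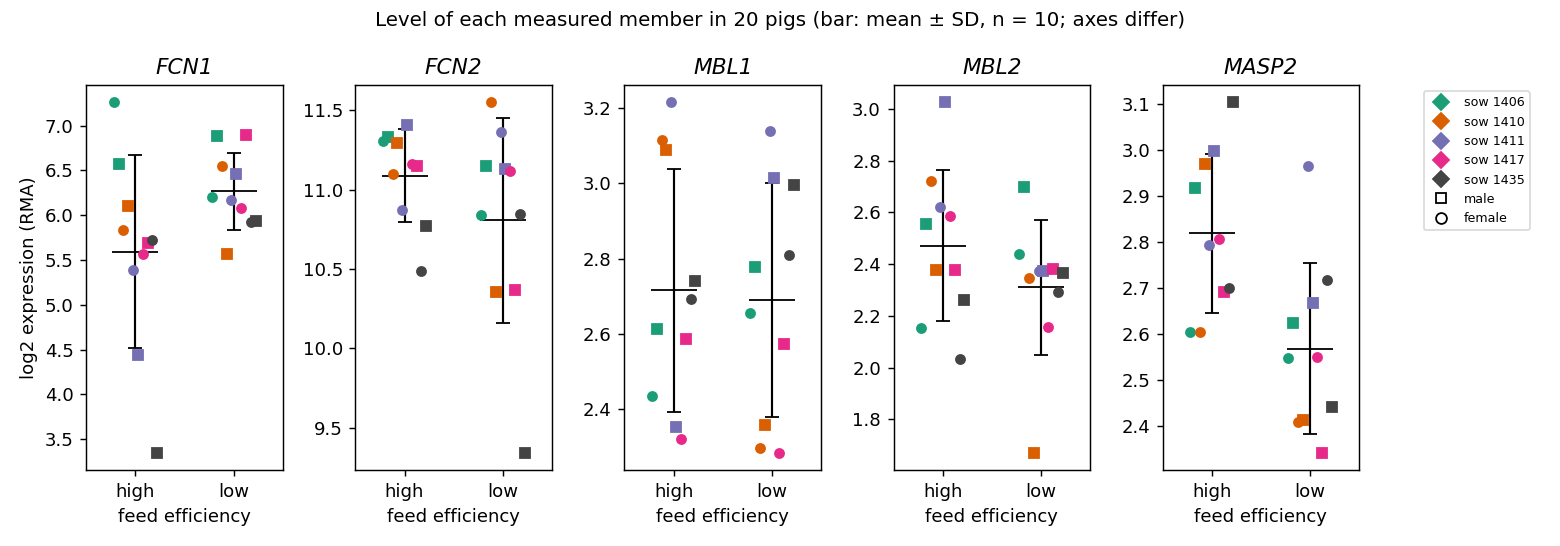
Log2 expression (y axis, a scale for each gene) of the 5 measured members in pigs of high and low feed efficiency, 1 point per pig, coloured by sow, with squares for males and circles for females and bars for mean ± SD (n = 10). FCN1 spread widely in the high-efficiency group, down to 3.35, and FCN2 in the low-efficiency group, down to 9.34.

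The first comparison asked whether members differed with feed efficiency among littermates. FCN1 ran against the other members: it was the one member with a lower mean in high feed efficiency, while FCN2, MASP2, MBL2 and MBL1 had the higher mean there. With limma, 0 of 5 members had an adjusted p under 0.05, as was so for 0% of the 23140 probesets tested. At an unadjusted p under 0.05 there were 2 of 5, FCN1 and MASP2, against 4.48% of all probesets (1036 probesets). A difference above 0 was found in 4 of 5 members and in 51.1% of all probesets.

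Among the recognition molecules, FCN1 had a lowest, median and highest level of 3.35, 5.71 and 7.26 in high-efficiency pigs, against 5.56, 6.19 and 6.89 in low-efficiency pigs. The groups overlapped, and the 2 lowest pigs, at 3.35 and 4.44, were both high-efficiency males, of sows 1435 and 1411. The mean was 5.59 ± 1.08 in high and 6.27 ± 0.43 in low feed efficiency (SD, n = 10 each), a log2 difference of -0.67 ± 0.29 (SE, limma adjusted p = 0.980). The high-efficiency pig was the lower one in 8 of 10 pairs, a pattern that 5% of all probesets showed at least as often. Without the high-efficiency male of sow 1435 the difference was -0.45, and without the litter of sow 1411 it was -0.49. The SD of FCN1 was 2.51 times as large in high as in low feed efficiency, and 0.968% of all probesets had a ratio at least that large. The lowest pig, at 3.35, adds to the SD of the high group, and the ratio of SDs without it was not calculated. The spread in the high group was over the bound of the SD filter there, and FCN1 was retained because its spread in the low group was not.

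FCN2 showed the opposite pattern in both mean and spread. Its lowest, median and highest level was 10.49, 11.15 and 11.41 in high-efficiency pigs, against 9.34, 10.98 and 11.55 in low-efficiency pigs. The ranges overlapped over most of their length, but the 3 lowest pigs, at 9.34, 10.35 and 10.36, were all low-efficiency males, of sows 1435, 1410 and 1417. The low-efficiency male of sow 1435 was also the lowest pig on each of the other FCN2 probesets. The log2 difference was 0.28 ± 0.18 (SE, limma adjusted p = 0.980), positive in 7 of 10 pairs, as in 18.1% of all probesets at least. The other FCN2 probesets differed by 0.07, 0.28 and 0.15 in the same direction, and were positive in 5, 6 and 6 of 10 pairs. The SD of FCN2 was 2.21 times as large in low as in high feed efficiency, and 1.75% of all probesets had a ratio at least that large. This holds for the chosen probeset, and the ratio was smaller on the others, at 1.54, 1.92 and 1.71. On the chosen probeset the SD was 0.25 in high- and 0.74 in low-efficiency males, but 0.32 and 0.31 in females (n = 5 each). The lowest pig, at 9.34, adds to the SD of the low group, and the ratio of SDs without it was not calculated. Without the low-efficiency male of sow 1435 the difference in level was 0.16.

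The mannose-binding lectins did not separate the groups. MBL1 was at 2.72 ± 0.32 in high and 2.69 ± 0.31 in low feed efficiency (SD, n = 10 each), with 5 of 10 pairs in either direction (log2 difference 0.03 ± 0.13 SE, limma adjusted p = 0.996). MBL2 was at 2.47 ± 0.29 in high and 2.31 ± 0.26 in low feed efficiency, and was likewise higher in 5 of 10 pairs (0.16 ± 0.12 SE, limma adjusted p = 0.980). The sign for MBL1 turned without the litter of sow 1410, at -0.16.

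For the protease MASP2, the lowest, median and highest level was 2.60, 2.80 and 3.10 in high-efficiency pigs, against 2.34, 2.55 and 2.97 in low-efficiency pigs. All 10 high-efficiency pigs lay above the low-efficiency median, the groups overlapped, and the high-efficiency pig was the higher one in 8 of 10 pairs, a pattern seen at least as often in 5.92% of all probesets. The unadjusted limma p was 0.00845 and the adjusted p 0.980. The second MASP2 probeset did not carry the difference, at 0.13 ± 0.18 (SE), and was higher in high-efficiency pigs in 5 of 10 pairs.

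**Figure D2:**
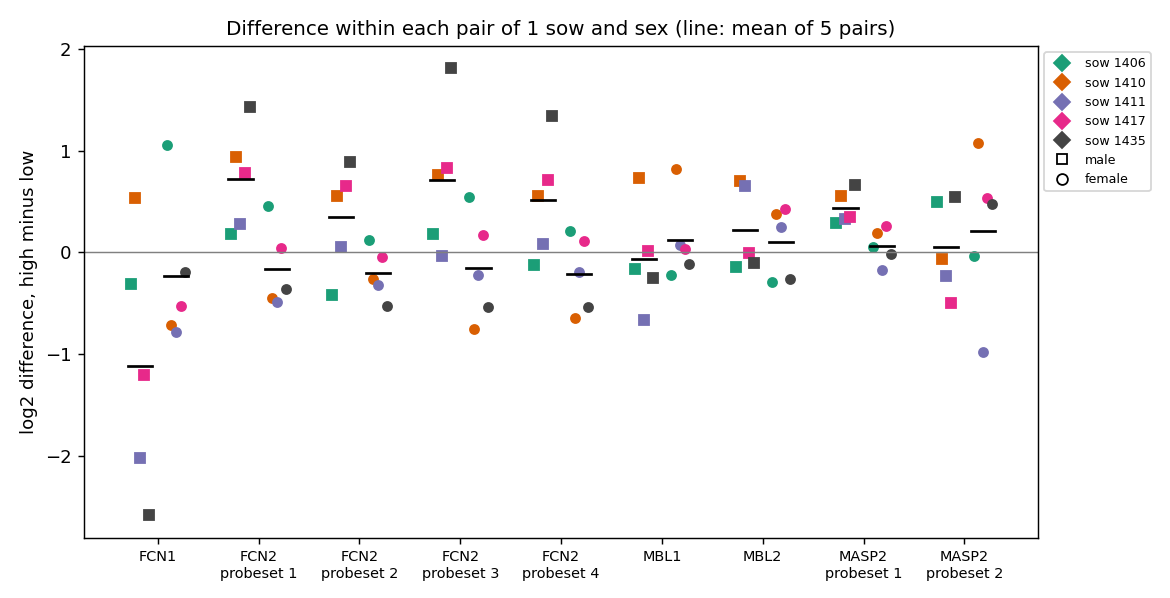
Log2 difference within each pair of 1 sow and sex, high minus low feed efficiency (y axis), for the 9 probesets of the members, with squares for male and circles for female pairs, colours for sows and lines for the mean of 5 pairs. FCN1 falls to -2.58 and the first FCN2 probeset reaches 1.43 in the male pair of sow 1435, where FCN2 probeset 3 is at 1.81, and the male pairs of FCN2 and MASP2 lie above 0 on their first probesets.

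Split by sex, the differences of FCN1, FCN2 and MASP2 were larger in male than in female pairs. FCN2 was higher in the high-efficiency male of 5 of 5 male pairs, by 0.18, 0.28, 0.78, 0.94 and 1.43, while 2 of 5 female pairs were positive, with a mean of -0.16. In males the groups still overlapped, at 10.77 to 11.41 in high and 9.34 to 11.15 in low feed efficiency. A positive difference in all male pairs was found for 3.82% of all probesets. The interaction of feed efficiency and sex was 0.88 ± 0.29 (SE) for FCN2 with an unadjusted limma p of 0.00780, and 0.55, 0.87 and 0.72 on the other FCN2 probesets, where 4 of 5 male pairs were positive on each.

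MASP2 was at 2.69 to 3.10 in high-efficiency males and at 2.34 to 2.67 in low-efficiency males. These ranges did not overlap, as was so in the same direction for 0.268% of all probesets, and the mean male difference was 0.44 against 0.06 in females. Its interaction was 0.37 ± 0.15 (SE), but -0.16 on the second probeset. There the male groups overlapped, at 1.66 to 2.98 in high and 1.87 to 3.04 in low feed efficiency. On that probeset 2 of 5 male pairs were positive, with a mean difference of 0.05. FCN1 was lower in high feed efficiency in 4 of 5 male and 4 of 5 female pairs, as in 3.46% of all probesets at least, with mean differences of -1.12 in males and -0.23 in females and an interaction of -0.89 ± 0.55 (SE). All members had an adjusted p of 0.999 for the interaction in limma, and 2 of 5, FCN2 and MASP2, had an unadjusted p under 0.05, against 4.11% of all probesets (0% adjusted). The male and female differences were thus not shown to differ after correction.

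Between the sexes, members differed little. Males averaged 5.79 ± 1.13 and females 6.07 ± 0.54 for FCN1, and males 10.83 ± 0.65 and females 11.06 ± 0.31 for FCN2 (SD, n = 10 each). No member passed, with 0 of 5 at an unadjusted p under 0.05 against 4.29% of all probesets (0% adjusted).

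Levels of different probesets cannot be set against each other, but the ratio of FCN1 to FCN2 can be compared between pigs. Both genes lie on chromosome 1 of the Sscrofa11.1 assembly, FCN2 from 274106276 to 274111970 and FCN1 from 274125666 to 274132917, with 13696 bases between them. The mean log2 ratio was -5.50 ± 1.01 in high and -4.54 ± 0.63 in low feed efficiency (SD, n = 10 each). The ratio combines the FCN1 and FCN2 levels of the same pigs, whose own differences had a limma adjusted p of 0.980 each. In 8 of 10 pairs the ratio was lower in high feed efficiency. The mean difference was -0.96 ± 0.44 (SE, exact sign-flip permutation p = 0.0371, two-sided, not adjusted or set against all probesets). The male pair of sow 1435 alone shifted the value to -0.62 when left out (exact permutation p = 0.0742), and with any of the other FCN2 probesets the difference was -0.75 to -0.95 with an exact permutation p of 0.0508 to 0.115. The ratio did not separate the litters (F = 0.71, permutation p = 0.611).

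The second comparison was between litters. FCN1 was highest in the litter of sow 1406, at 6.73 ± 0.45 (SD, n = 4), and lowest in that of sow 1435, at 5.23 ± 1.26. The litters between them averaged 6.06 (sow 1417), 6.01 (sow 1410) and 5.62 (sow 1411), and neighbours in this order lay within 1 SD of each other except the first pair, sows 1406 and 1417. FCN2 was nearly level in 4 litters, at 11.19 (sow 1411), 11.16 (sow 1406), 11.07 (sow 1410) and 10.95 (sow 1417), and lower in the litter of sow 1435, at 10.36 ± 0.70 (SD, n = 4). Between-litter differences made up 34.6% of the variance of FCN1 and 37.8% of that of FCN2. This share is not corrected for the number of litters, so it lies above 0 even without a litter effect. It was 30.6% for MBL1, 22.3% for MBL2 and 21.1% for MASP2. In the moderated F test of limma both had F = 2.89 and an adjusted p of 0.322. MBL1 (F = 1.52), MBL2 (F = 1.08) and MASP2 (F = 1.28) had an adjusted p of 0.528 to 0.643. On the chosen probesets 0 of 5 members had an unadjusted p under 0.05, against 16.1% of all probesets (0.126% adjusted, 30 probesets). The other FCN2 probesets had F = 2.16, 2.55 and 3.39. The last of these had an unadjusted limma p of 0.0343 and an adjusted p of 0.279.

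The F of FCN2 rested on the litter of sow 1435: it was 0.41 without that litter, 1.36 without its low-efficiency male alone and 1.88 without its high-efficiency female alone. The F of FCN1 depended on the litter of sow 1406: it was 1.56 without that litter, 1.88 without its high-efficiency female and 4.53 without its low-efficiency female. The epithelial score, the mean departure of the 7 genes from their mean over pigs, was lowest in the litter of sow 1435, at -0.22, and highest in that of sow 1406, at 0.18. Its genes did not all follow it, since KRT20 averaged 12.16 in the litter of sow 1435 and 11.98 in that of sow 1406. Neutrophil markers (6 measured of 10) had means from 1.92 for MPO to 6.87 for CSF3R. Their score was -0.20 in the litter of sow 1435 and 0.34 in that of sow 1406. MPO, the dimmest of them, averaged 1.60 in the litter of sow 1435 and 2.99 in that of sow 1406, so it contributed to this contrast on little signal. Monocyte and macrophage markers (7 measured of 10) had litter scores of -0.13 to 0.09. The B cell and follicle markers (4 measured of 8) varied most in score, with -0.80 (sow 1406), -0.51 (sow 1410), 0.81 (sow 1411), 0.09 (sow 1417) and 0.40 (sow 1435). For litter, 4 of 4 had an unadjusted limma p under 0.05, 1 of them after adjustment. So had 3 of 7 epithelial, 3 of 6 neutrophil and 0 of 7 monocyte and macrophage markers unadjusted, with 0 in each list after adjustment. Over all named genes it was 16.5% (1710 of 10346), with 8 after adjustment. The part of these marker genes in the ficolin levels was not tested. In bulk mucosa, fewer cells of a type and less RNA per cell cannot be told apart.

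**Figure D3:**
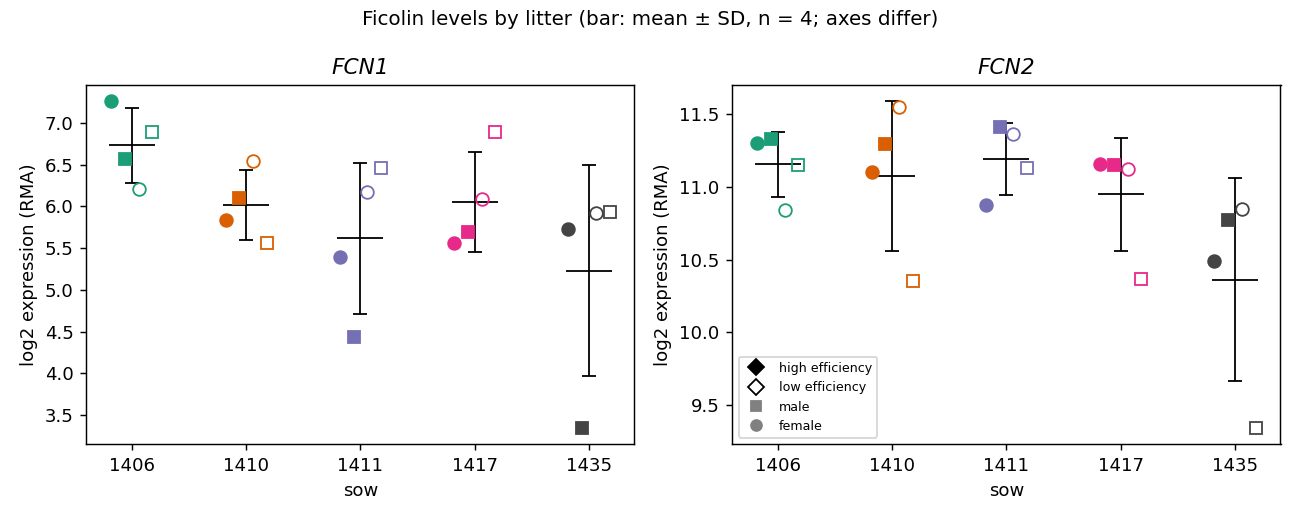
Log2 expression (y axis, a scale for each gene) of FCN1 and FCN2 by sow (x axis), 1 point per pig, filled for high and open for low feed efficiency, squares for males and circles for females, with bars for mean ± SD (n = 4). The litter of sow 1435 holds the lowest pig of both genes, the high-efficiency male for FCN1 and the low-efficiency male for FCN2.

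The ficolins varied largely apart from each other. Among the 10 pairs of members compared, the Pearson r of FCN1 and FCN2 over the 20 pigs was 0.11 (permutation p = 0.606), and their Spearman rho was 0.25 (permutation p = 0.287). On values centred on their litter r was -0.20, without the 2 pigs farthest from the FCN1 median it was 0.27, and it was 0.36 within each efficiency group. Among these values only the litter-centred r was negative. The adjusted p of FCN2 in a limma regression of every probeset on FCN1 was 0.977.

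FCN1 and MASP2 ran in opposite directions, with r = -0.56 (permutation p = 0.00791) and rho = -0.45 (permutation p = 0.0483). On litter-centred values r was -0.60 (permutation within litters p = 0.0199). The p-values for pairs of members were not corrected for the 10 pairs compared. This relation of FCN1 to MASP2 rested on the high-efficiency males of sows 1435 and 1411, where FCN1 was 3.35 and 4.44 and MASP2 was 3.10 and 2.998. Without both pigs r was -0.20. Within the groups r was -0.66 in high and -0.09 in low feed efficiency, and the limma adjusted p over all probesets was 0.968. FCN2 and MASP2 had r = 0.43 (permutation p = 0.0532) and rho = 0.39 (permutation p = 0.0920). Their r was 0.63 on litter-centred values (permutation within litters p = 0.0303) and 0.24 without the 2 pigs farthest from the FCN2 median. Both relations are those of the first MASP2 probeset. In the limma regression on FCN1 its slope was -0.14 (unadjusted p = 0.0155) and that of the second probeset -0.08 (unadjusted p = 0.473), and on FCN2 the slopes were 0.19 (unadjusted p = 0.0676) and 0.04 (unadjusted p = 0.845). The remaining 7 pairs had r between -0.17 and 0.37.

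**Figure D4:**
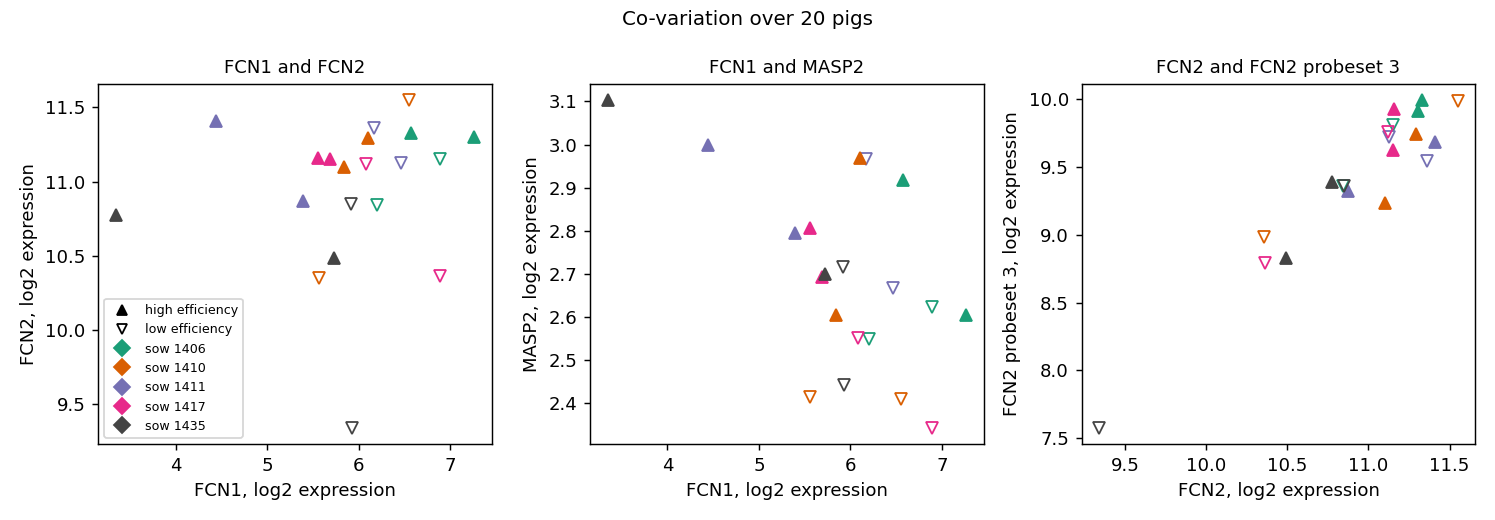
Log2 expression of pairs of probesets over 20 pigs, with FCN1 against FCN2 (r = 0.11), FCN1 against MASP2 (r = -0.56) and FCN2 against its probeset 3 (r = 0.95), coloured by sow, with filled upward triangles for high and open downward triangles for low feed efficiency. The 2 pigs at the far left of the first and second panels carry most of the relation of FCN1 to MASP2, whereas probesets of FCN2 follow each other over the whole range.

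Genes with a pattern like that of a member were sought among 10345 named genes over the 20 pigs, and their r is given as a description, since they were picked for it. For FCN2 the most alike were RPN1, a subunit of the oligosaccharyltransferase of the endoplasmic reticulum (r = 0.90), DNAJC22 (0.88), GDI2, a regulator of Rab proteins (0.86), CDK2AP1 (0.85) and the dynactin subunit ACTR1B (0.85). Their r was 0.76 to 0.91 on litter-centred values, and 0.61 to 0.73 without the low-efficiency males of sows 1435 and 1410. In the regression on FCN2 31 of 23836 probesets passed (0.13%, with 11.2% at an unadjusted p under 0.05), 3 of them the other probesets of FCN2, and with sow in the model 2 passed (0.00839%), both of FCN2. For FCN1 the most alike were the RNA-binding protein gene FXR2 (r = 0.77), TPD52L2 (0.75), the urea transporter gene SLC14A1 (0.74), ZC3H3 (0.71) and ANKRD13B (0.71). None was a myeloid marker of the list used here, no probeset passed in the regression on FCN1 (0%, with 4.16% at an unadjusted p under 0.05), and without the high-efficiency males of sows 1435 and 1411 r fell to 0.23 for TPD52L2 and 0.53 for FXR2.

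For MBL1 the most alike genes were GNG4, a G protein subunit (r = 0.84), PRICKLE2 (0.80) and HEG1 (0.73). GNG4 averaged only 1.97, near the level filter at 1.62, so its match to MBL1 rests on little signal. For MBL2 they were the cadherin gene PCDH15 (0.80), NHLH2 (0.79) and BCAM (0.79). For MASP2 they were ANGPTL7 (0.73), GGA2 (0.70), an adaptor of the trans-Golgi network, and the Polycomb gene PCGF2 (0.68), and on the second MASP2 probeset these had r = -0.0023, 0.14 and 0.40. The MBL2 probeset followed a large part of the array, with 20.6% of all probesets at an unadjusted p under 0.05 in its regression, against 3.96% for MASP2 and 5.81% for MBL1 (0% adjusted for each).

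The other complement genes were counted from 3 lists: other lectin pathway genes (collectins, pentraxins, inhibitors and receptors), the shared cascade, and regulators and receptors. Of 47 listed genes 29 were measured. In the feed efficiency comparison 22 of 29 were above 0 and 7 below, with a median log2 difference of 0.16, beside 52.7% above 0 and a median of 0.01 over all named genes. None passed after adjustment. Among the lectin pathway genes 5 of 6 were above 0 (median 0.17), and 2 had an unadjusted p under 0.05, as did 434 of 10038 named genes tested: SFTPA1, the collectin surfactant protein A, at 0.30 ± 0.13 (SE) on a weak mean level of 1.83, and LRP1, an endocytic receptor, at 0.19 ± 0.08. SERPINC1, antithrombin, an inhibitor of MASPs in the presence of heparin, differed by 0.23 ± 0.14 without passing even unadjusted. In the cascade 12 of 14 were above 0 (median 0.19), with 5 at an unadjusted p under 0.05: C4A and C2, the substrates of MASP2, and C1R, C1QA and C1QC. Among the regulators 5 of 9 were above 0 (median 0.02) and 0 had an unadjusted p under 0.05.

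**Figure D5:**
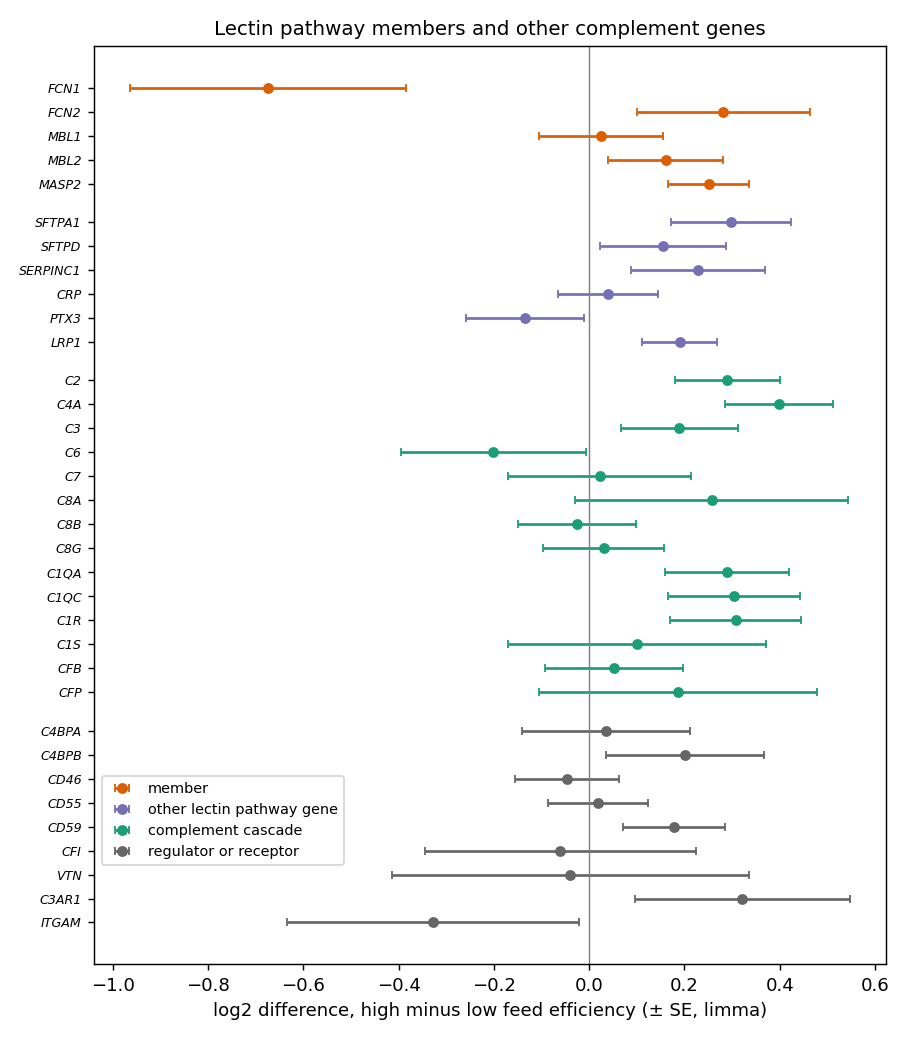
Log2 difference between high and low feed efficiency (x axis, ± SE from limma, n = 10 pigs per group) for the 5 measured members and 29 other complement genes, coloured by list. FCN1, at -0.67, has the lowest estimate of the genes shown, and 22 of the 29 other genes lie above 0.

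The relation of both ficolins to these complement genes is given as a description over 20 pigs of the same arrays, without a test between the ficolins. Of the 29 genes, 6 had r above 0.5 with FCN2 and 1 had r under -0.5, where 6.26% and 2.51% of all named genes did. With FCN1 there were 0 on either side (1.17% and 0.580% of all named genes). C3, the central component of complement, had r = 0.78 with FCN2 (rho = 0.57, 0.73 on litter-centred values, 0.56 without the low-efficiency males of sows 1435 and 1410), and r = 0.03 with FCN1. CFB, the protease of the alternative pathway, had r = 0.77 with FCN2 (rho = 0.53, 0.66 litter-centred, 0.58 without the same pigs), and r = 0.21 with FCN1. The other FCN2 probesets gave 0.75 to 0.79 for C3 and 0.80 to 0.82 for CFB. In the litter of sow 1435, where FCN2 was lowest, C3 (11.11) and CFB (9.61) were lowest too.

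The positive relations of FCN2 to 4 other genes rested on few pigs. C4BPA and C4BPB, the chains of C4-binding protein, a fluid-phase inhibitor of the C3 convertase, had r = 0.62 and 0.68, but rho was 0.19 and 0.32 and r was 0.24 and 0.23 without the low-efficiency males of sows 1435 and 1410. C4A (r = 0.60) and the collectin SFTPD (0.54) fell to 0.22 and 0.32 in the same way. CD46, a membrane cofactor that protects host cells, had the opposite sign, with r = -0.56 and rho = -0.69. It kept r = -0.56 without the same pigs but had -0.24 on litter-centred values. Among the cell type scores, that of the epithelial markers had r = 0.45 with FCN1 and 0.40 with FCN2, and 0.15 and 0.08 on litter-centred values, while that of the neutrophil markers had r = 0.43 with FCN1 and 0.12 with FCN2, and 0.16 and -0.27 on litter-centred values. The monocyte and macrophage score had r = 0.20 with FCN1 and -0.18 with FCN2, and 0.18 and -0.30 on litter-centred values. For the B cell and follicle score r was -0.23 with FCN1 and -0.18 with FCN2, and 0.53 and -0.04 on litter-centred values. A part of these marker genes in the ficolin levels was not tested.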

How the data were processed

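Caecal RNA of 20 pigs was measured on the Affymetrix snowball array, with scanning software GCOS 1.1.1 per the submitters' processing notes. The authors deposited log2 values made by robust multichip averaging with a custom probe layout on the Sscrofa11.1 genome, which equalises arrays and compresses differences of dim probesets. Of 47845 probesets, the 25092 with values in all 20 columns were used, and 0 columns stayed unmatched. Their upper quartiles lay between 6.25 and 6.30, and arrays correlated with r of 0.942 to 0.974. The number of arrays limits the precision. Symbols came from the platform annotation, which is older than the layout, with 331 updated through the RefSeq gene table, from which positions were taken. In that table the pig MBL1 entry lists MBL2 as a synonym, so the MBL names follow the platform.

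Models were fitted with limma 3.58.1 in R 4.3.3, two-sided, with Benjamini-Hochberg adjustment over all probesets tested and calls at 0.05. After the study's filters (mean under the 5% quantile, or SD over the 95% quantile in both efficiency groups) 23140 probesets entered the feed efficiency and interaction fits, and 23837, filtered on the mean alone, the litter and sex fits. Sow was a fixed factor. Covariates were feed efficiency and sex for litter, and feed efficiency and sow for sex. Slaughter batch, part of the study's model, is absent from the labels used and was not modelled. The pigs are separate animals. Differences are high minus low feed efficiency and male minus female. Ratios were tested by exact sign flips over pairs, correlations and ratio F with 100000 permutations. Fits were tested on simulated data. Python 3.11.15 and matplotlib 3.10.9 were used for the rest.

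Members and gene lists were chosen with earlier results of these data known. Named are the members, up to 4 genes of each complement list with the smallest p in a fit, and the 5 (ficolins) or 3 (others) genes with the highest r to a member. C1QC, and the complement genes named for their r with FCN2, were chosen after their values were seen. Alternatives changed the filters, eBayes settings, normalisation, covariates, array weights and probeset, or left out pigs and litters.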

Additional observations from a re-analysis of the deposited data

Results flagged for a closer look

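Of 42 groups of pigs checked for a pig far from the rest, 3 held one, and chance gives about 1 in 20 groups. FCN1 was at 3.35 in the high-efficiency male of sow 1435, where the next pig of that litter was at 5.73. FCN2 was at 10.36 in the low-efficiency male of sow 1417, where the next littermate was at 11.12. MBL2 was at 1.67 in the low-efficiency male of sow 1410, where the next low-efficiency pig was at 2.16.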

How the results depend on the processing

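No member passed after adjustment for feed efficiency, litter, sex or the interaction under the alternatives run, which for the interaction left out no pig or litter, and FCN1, FCN2, MBL2 and MASP2 kept the sign of their feed efficiency difference in all of them. The number of probesets called for feed efficiency was 0 to 1 when a pig was left out. For litter it was 116 without probesets under the median level, 57 with trended robust eBayes, 3 with pig number as a covariate, 124 with array weights, 11 to 72 with a pig left out, and 10, 10, 16 and 7 without the litters of sows 1406, 1410, 1411 and 1435. For sex it was 2 with pig number as a covariate and 0 to 1 with a pig left out. The MBL1 difference by feed efficiency turned to -0.0062 with array weights and -0.16 without the litter of sow 1410, and was -0.032 to 0.11 with a pig left out. By sex, MBL1 was -0.028 after renewed quantile normalisation, -0.020, -0.052 and -0.012 without the litters of sows 1406, 1417 and 1435, and -0.047 to 0.11 with a pig left out. MBL2 by sex was -0.011 after quantile normalisation, -0.038 and -0.0068 without the litters of sows 1406 and 1411, and -0.022 to 0.12 with a pig left out. The second MASP2 probeset gave -0.086 for sex and -0.16 for the interaction. The FCN1 to FCN2 ratio kept its direction but lost an exact permutation p under 0.05 in 16 of 19 alternatives: -0.75, -0.95 and -0.83 with the other FCN2 probesets, -0.91 after quantile normalisation, -1.11, -0.87, -0.88 and -0.71 without the litters of sows 1410, 1411, 1417 and 1435, and -1.03 to -0.62 without 1 of 8 pairs. Over all 10 pairs left out in turn it was -1.13 to -0.62, and p stayed under 0.05 without the female pair of sow 1406 or 1435 and without the litter of sow 1406. The correlation of FCN1 and FCN2 turned to -0.015 without the litter of sow 1406, -0.20 on litter-centred values and -0.054 with pig number regressed out, and was 0.06 to 0.22 with a pig left out. The cause of these changes was not tested. Limits are the 10 pigs per group, the low signal of MBL1, MBL2 and MASP2, and possible cross-hybridisation between the ficolins, which was not tested. The labels carry no replicate number, so pairs were formed by sow and sex. The pair of sow and sex as a block gave 0 calls for feed efficiency.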
